A study of Rattus with 4 samples.

Results

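The collagen chain genes are the protein-coding genes of the deposited count table whose symbol is Col, a type number, the letter a and a chain number. The table lists 13731 genes, 12190 of them protein-coding, and the rule found 35 collagen chain genes. By textbook class these were 11 fibrillar chains, 9 network chains, 7 FACIT chains (fibril-associated collagens with interrupted triple helices), 3 beaded filament chains and 5 others. RNA precipitated with an antibody to NONO, a nuclear RNA-binding protein of paraspeckles, was compared with input RNA of cultured rat cardiac cells by RNA immunoprecipitation sequencing (RIP-seq). There were 2 input libraries, labelled as empty-vector cells with no antibody, and 2 NONO IP libraries, labelled as NONO siRNA cells with an anti-NONO antibody. The groups therefore differ by label in precipitation and in knockdown, which cannot be told apart, and no library with a control antibody was analysed here. On the cells the labels differ: H9C2, a rat heart myoblast line, stands in the titles, and cardiac fibroblasts of rat in the growth protocol. The labels do not say whether replicates were separate cultures, so p-values measure only the spread between these libraries.

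Collagens are secreted proteins of the extracellular matrix, each built from chains wound into a triple helix. Fibrillar collagens form the banded fibrils that give tissue its tensile strength, network collagens form sheets in basement membranes, FACITs sit on fibril surfaces, and type VI collagen forms beaded filaments. In the heart, fibroblasts make most of the fibrillar collagen, which accumulates in fibrosis. The chains are translated at the endoplasmic reticulum, hydroxylated and folded there, then trimmed and cross-linked outside the cell.

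Gene counts summed to between 238776 and 279410 per library. Ribosomal RNA took 41.7% ± 0.786 of the input reads and 32.0% ± 0.172 of the NONO IP reads (SD, n = 2). The targeted gene Nono (chromosome X) was below the count filter, with 21 and 9 input reads and 3 in each NONO IP library, lower where the label names its siRNA. Of the 10 fibroblast markers, 9 were listed, and the 6 that are not collagens held 418 and 412 input reads. Smooth muscle markers held 531 and 519, 6 of 8 cardiomyocyte markers 40 and 61, 2 of 6 skeletal myoblast markers 11 and 10, 5 of 6 macrophage and leukocyte markers 14 and 14, and 1 of 4 endothelial markers 0 and 1. Myod1, Myf5 and Myog, which define skeletal myoblasts, were not among the listed genes. The summed fibroblast markers without collagens were at 2153 and 2180 CPM in the inputs against 897.5 and 1064 CPM in the NONO IP. Smooth muscle markers were at 2735 and 2747 against 1219 and 1246 CPM. The skeletal myoblast and the macrophage and leukocyte lists, with few reads, were also lower. Cardiomyocyte markers overlapped between groups (206 and 323 against 268 and 257 CPM), as did the endothelial marker. Falls were also common among other coding genes with at least 50 input reads, as given below. CPM, a gene's count relative to the total count of the tested genes in its library, carries TMM (trimmed mean of M-values) scaling throughout. The markers' part in the collagen values was not tested. Precipitation, knockdown, fewer cells of a type and less RNA per cell cannot be told apart in these differences.

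Collagen mRNAs were among the most abundant RNAs in every library. The 35 genes together held 12.4% ± 0.0334 of all gene reads in the inputs and 11.9% ± 0.0567 in the NONO IP (SD, n = 2). Among protein-coding reads the share was 21.7% ± 0.248 in the inputs and 18.6% ± 0.0424 in the NONO IP. Both NONO IP libraries lay below both inputs on either base, and an exact permutation test of 2 against 2 libraries, which cannot give less, gave a two-sided p of 0.333. Col1a1, which encodes the alpha 1 chain of type I, ranked first of all protein-coding genes by reads in each of the 4 libraries, and Col1a2, its alpha 2 partner, ranked second in each.

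Of the 35 genes, 24 had enough reads to be tested. In the NONO IP, 18 of these fell, 3 rose and 3 did not pass the test (edgeR, adjusted p under 0.05 over all 2920 genes tested). Over all tested genes 26.9% were called lower and 29.8% higher. The median log2 fold change, NONO IP over input, was −0.55 for the tested chains and 0.02 for all tested genes. By class, 5 of 9 tested fibrillar chains fell and 2 rose, all 6 network chains fell, 3 of 4 FACITs fell and 1 rose, 2 of 3 beaded filament chains fell, and both tested chains of the other types fell. The class medians were −0.35 for fibrillar, −0.62 for network, −1.17 for FACIT, −0.32 for beaded filament and −0.84 for the other chains.

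These directions are relative to the TMM scale, which puts the median tested gene near 0. Scaled by library totals, where the median gene sat at 0.48, 7 chains were lower and 5 higher (Col5a1 and Col11a1 joined the 3), beside 15.2% and 41.7% of all tested genes. The 7 were Col1a2, Col5a2, Col4a5, Col12a1, Col14a1, Col6a3 and Col18a1, and the chains' median was −0.09. On the deposited RPKM scale with a pseudocount of 1, where it sat at −0.61, 18 of 28 chains were lower and 0 higher by limma, against 18.8% lower and 5.19% higher among 7576 genes. Relative to the median of all genes, 21 of the 24 chains lay below it under TMM, library totals and log2(RPKM + 1). Col11a2, Col20a1 and Col27a1 lay above it, of which Col20a1 and Col27a1 reached the test through their NONO IP reads. Library totals are no separate check here, since a change of scale moves a chain and the median gene alike. The RPKM scale differs in this mainly by its pseudocount and its set of genes. With a pseudocount of 0.1 Col5a1, and without Input replicate 2 Col6a1, also lay above the median.

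**Figure D1:**
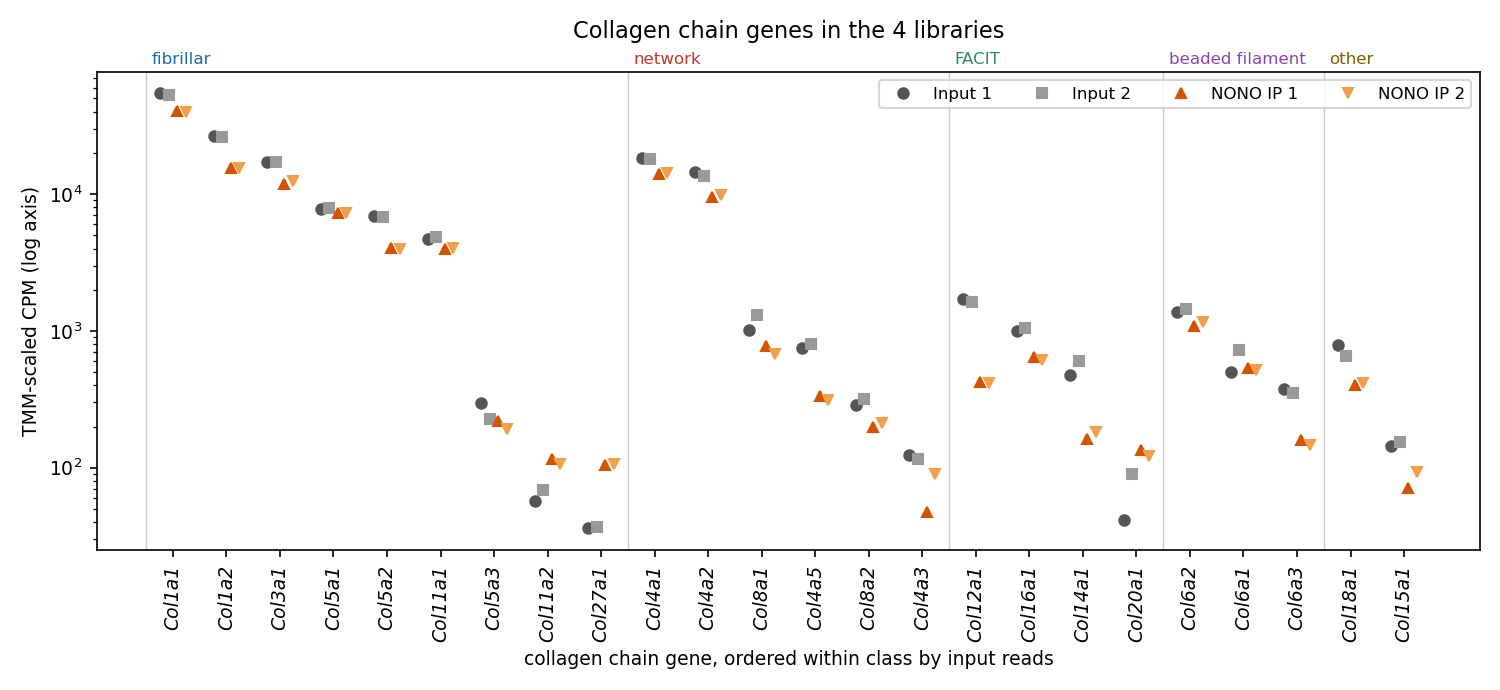
TMM-scaled CPM (log axis) of the 24 tested collagen chain genes in each library, grouped by class and ordered by input reads; grey points are inputs and orange points NONO IP. Levels run from 36.1 CPM for Col27a1 to 54480 CPM for Col1a1 in the inputs, and the orange points of most chains sit below the grey ones, with Col11a2, Col20a1 and Col27a1 the other way.

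The fibrillar chains held 73.8% ± 0.0480 of collagen reads in the inputs and 74.3% ± 0.287 in the NONO IP (SD, n = 2). Col1a1, on chromosome 10, had 10575 and 10072 input reads against 12011 and 11190 in the NONO IP libraries. Scaled for depth, that was 53890 ± 833 CPM in the inputs and 40320 ± 505 CPM in the NONO IP, with no overlap between groups. Its log2 fold change was −0.42 (SE 0.05, adjusted p = 5.43e-06), a level 1.34-fold lower. With library totals it was 0.04 (adjusted p = 0.446), so the fall of Col1a1 depends on the scaling.

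Col1a2, on chromosome 4, fell more. It had 5134 and 4925 input reads against 4577 and 4372 NONO IP reads, so that even the unscaled reads were fewer. The level went from 26260 ± 273 to 15560 ± 80.0 CPM, with a log2 fold change of −0.75 (SE 0.06, adjusted p = 1.01e-08). Col3a1, on chromosome 9, is the single chain of type III collagen, which forms thin fibrils with type I. Its reads were 3318 and 3221 in the inputs, against 3519 and 3479 in the NONO IP, and its log2 fold change was −0.49 (SE 0.06, adjusted p = 4.07e-06), or −0.03 with library totals (adjusted p = 0.717).

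Type V collagen starts and limits the width of type I fibrils, and its chains behaved unequally. Col5a2, on chromosome 9, had 1334 and 1285 input reads against 1196 and 1111 in the NONO IP libraries, and was lower (log2 fold change −0.77, SE 0.07, adjusted p = 7.19e-08). Col5a1, on chromosome 3, had 1502 and 1487 input reads against 2160 and 2040 in the NONO IP libraries. On the TMM scale that was 7803 ± 92.9 against 7301 ± 21.0 CPM and did not pass the test (−0.10, SE 0.07, adjusted p = 0.228), whereas it was higher with library totals (0.37, adjusted p = 8.48e-05) and lower on log2(RPKM + 1) (−0.76, adjusted p = 0.0182). Col5a3, another chain of the type on chromosome 8, had 58 and 43 input reads against 65 and 54 in the NONO IP libraries (−0.35, SE 0.21, adjusted p = 0.162).

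Col11a1, on chromosome 2, encodes a chain of type XI collagen, the close relative of type V that was first known from cartilage. It had 913 and 915 input reads against 1167 and 1123 in the NONO IP libraries, with a log2 fold change of −0.26 (SE 0.07, adjusted p = 0.00564) on the TMM scale and 0.20 (adjusted p = 0.0219) with library totals. Its direction is therefore set by the scaling. It lay below the median gene, a place that a change of scaling leaves nearly as it is. The Col11a1 call ended with no count filter (−0.04, adjusted p = 0.776), by the DESeq2 Wald test (adjusted p = 0.0792) and without Input replicate 2 (adjusted p = 0.0733).

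The fibrillar chains that rose, of minor fibrils and of cartilage, were weakly expressed. Col27a1, on chromosome 5, had 7 and 7 input reads against 31 and 30 in the NONO IP libraries, or 36.5 ± 0.695 against 106 ± 1.52 CPM (log2 fold change 1.52, SE 0.38, adjusted p = 0.00247). Col11a2, on chromosome 20, had 11 and 13 against 34 and 30 reads (0.82, SE 0.32, adjusted p = 0.0383). The NONO IP libraries lay above the inputs for both genes. The least covered tested gene had 23 reads over the 4 libraries and Col27a1 had 14 in the inputs, so Col27a1 reached the test through its NONO IP reads. Neither rise passed with the DESeq2 Wald test (adjusted p = 0.0642 and 0.274), and Col11a2 lost its call without any of the 4 libraries in turn (adjusted p from 0.0624 to 0.184).

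Type IV collagen is the main network of basement membranes. Its chains Col4a1 and Col4a2, neighbours on chromosome 16, were with those of type I and III the most abundant chains. In each library Col4a1 lay above Col3a1 by reads and below it per length (RPKM). Col4a1 had 3586 and 3420 input reads against 4129 and 4000 in the NONO IP libraries (−0.37, SE 0.06, adjusted p = 6.08e-05, and 0.09 with library totals). Col4a2 had 2830 and 2581 input reads against 2825 and 2755 in the NONO IP libraries (−0.54, SE 0.06, adjusted p = 2.11e-06). The 2 chains had 18290 ± 265 and 14120 ± 651 CPM in the inputs and 14140 ± 214 and 9704 ± 192 CPM in the NONO IP, without overlap of the groups.

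Further type IV chains were expressed at lower levels. Col4a5, on the X chromosome, a chain of the kidney glomerular basement membrane, had 146 and 152 input reads, then 99 and 87, that is from 778 ± 36.9 to 323 ± 17.4 CPM (−1.27, SE 0.14, adjusted p = 6.97e-07). Col4a3, on chromosome 9, had 24 and 22 input reads against 14 and 25 in the NONO IP libraries. Its libraries spread widely in the NONO IP (47.4 and 89.3 CPM), and its call (−0.82, adjusted p = 0.0465) ended without NONO IP replicate 1 (−0.43, adjusted p = 0.366) and without either input (adjusted p = 0.175 and 0.117). The chains of type VIII collagen, a short-chain network collagen of vessel walls and cornea, both fell on the TMM scale. Col8a1, on chromosome 11, had 197 and 248 input reads, then 230 and 189 (−0.68, SE 0.13, adjusted p = 0.000286), and Col8a2, on chromosome 5, 56 and 60, then 59 and 59 (−0.56, SE 0.19, adjusted p = 0.0188). The Col8a2 call ended without Input replicate 1, without Input replicate 2 or without NONO IP replicate 1 (adjusted p = 0.0543, 0.120 and 0.0578), and also with library totals (−0.10, adjusted p = 0.681), the DESeq2 Wald test (adjusted p = 0.197) and no count filter (adjusted p = 0.382). Col8a1 did not pass with library totals (−0.22, adjusted p = 0.172).

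The tested FACIT chains ran from −1.99 to −0.71 apart from Col20a1, which was at 0.97 and reached the test through its NONO IP reads. Col12a1, on chromosome 8, whose product lies on type I fibrils, had 332 and 308 input reads against 126 and 116 in the NONO IP libraries. Its level dropped from 1670 ± 56.9 to 420.5 ± 8.80 CPM, or 3.97-fold (−1.99, SE 0.11, adjusted p = 1.02e-10), and the fall was the deepest among the 24 chains. Col14a1, on chromosome 7, another FACIT of fibril surfaces, had 92 and 113 input reads against 48 and 51 in the NONO IP libraries (−1.63, SE 0.18, adjusted p = 9.54e-07). Both were lower also with library totals. Col16a1, on chromosome 5, had 393 reads over both inputs and 360 over both NONO IP libraries, 999.4 and 1053 against 640.1 and 611 CPM (−0.71, SE 0.12, adjusted p = 5.63e-05).

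Col20a1, on chromosome 3, was the exception among FACITs, with 8 and 17 input reads against 40 and 34 in the NONO IP libraries (0.97, SE 0.34, adjusted p = 0.0222). With only 8 reads in Input replicate 1, it reached the test through its NONO IP reads. The inputs were far apart, and the call ended by the DESeq2 Wald test (adjusted p = 0.184), without Input replicate 1 (0.50, adjusted p = 0.276) and without NONO IP replicate 1 (0.89, adjusted p = 0.0613). FACITs together made up 2.13% ± 0.0886 of collagen reads in the inputs and 1.24% ± 0.0217 in the NONO IP (SD, n = 2), and the libraries of the groups did not overlap (exact permutation p = 0.333, the smallest possible).

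The chains of type VI collagen split. Col6a3, on chromosome 9, the largest chain, had 73 and 67 input reads against 47 and 41 in the NONO IP libraries, or 365 ± 15.2 against 153 ± 9.01 CPM (−1.25, SE 0.19, adjusted p = 3.8e-05). Its partner Col6a2, on chromosome 20, had 266 and 273 against 319 and 327 reads and a smaller change (−0.32, SE 0.10, adjusted p = 0.0111; 0.14 with library totals). Col6a1, next to Col6a2, had 97 and 136 input reads against 158 and 144 in the NONO IP libraries, overlapped between groups and did not pass (−0.21, SE 0.16, adjusted p = 0.253). Without Input replicate 1 it was lower (−0.47, adjusted p = 0.0478) and without Input replicate 2 it was at 0.05 (adjusted p = 0.838). The Col6a2 call ended without Input replicate 1 or 2 (adjusted p = 0.0556 and 0.113).

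Of the other types, Col18a1 and Col15a1 encode the multiplexins of basement membrane zones, whose C-terminal fragments are known as endostatins. Col18a1, on chromosome 20, had 154 and 123 input reads against 118 and 116 in the NONO IP libraries (−0.83, SE 0.14, adjusted p = 9.55e-05). Col15a1, on chromosome 5, had 28 and 29 against 21 and 26 (−0.86, SE 0.29, adjusted p = 0.0163), a call that ended without Input replicate 1, Input replicate 2 or NONO IP replicate 1 (adjusted p = 0.0557, 0.0727 and 0.116).

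The other 11 chains were below the count filter. Col4a6, Col9a2, Col7a1, Col9a3, Col4a4, Col19a1, Col24a1 and Col10a1 had between 1 and 17 reads over the 2 inputs and between 1 and 20 over the NONO IP libraries. Col2a1, the cartilage fibril chain, Col25a1 and Col17a1, both transmembrane collagens, had 0 input reads and 1, 1 and 3 NONO IP reads. In an edgeR fit over all 13731 genes their adjusted p ran from 0.190 to 0.930, so a difference was not detectable at this depth.

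Ratios between chains inside a library do not depend on how the libraries are scaled, and 9 pairs were compared. Type I collagen contains more alpha 1 than alpha 2 chains. Col1a1 had 2.06 and 2.045 reads per Col1a2 read in the inputs, against 2.62 and 2.56 in the NONO IP. Per length, using relative gene lengths recovered from the deposited RPKM values, the ratio was 1.57 ± 0.00798 in the inputs and 1.99 ± 0.0351 in the NONO IP (SD, n = 2), a 1.26-fold larger ratio. The 95% exact binomial intervals of the inputs, at most 2.13 in reads, did not reach those of the NONO IP, at least 2.47.

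Col5a1 and Col5a2 changed places. Reads of Col5a1 per read of Col5a2 were 1.13 and 1.16 in the inputs, against 1.81 and 1.84 in the NONO IP, 1.60-fold more, and the counting intervals (at most 1.25 and at least 1.68) were apart. Per length the ratio was 0.891 ± 0.0172 and 1.42 ± 0.0166, so Col5a2 was the more abundant chain in both inputs and Col5a1 in both NONO IP libraries. Col4a1 per Col4a2 read was 1.27 and 1.33 against 1.46 and 1.45, a smaller difference whose counting intervals touched. Col12a1 per Col1a1 read was 0.0314 and 0.0306 against 0.0105 and 0.0104, or 0.337-fold, with intervals apart.

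The remaining pairs differed less or were less precise. Col6a3 per Col6a1 read was 0.753 and 0.493 in the inputs, against 0.297 and 0.285 in the NONO IP, with the inputs wide apart. Col11a1 per Col5a1 read was 0.608 and 0.615 against 0.540 and 0.551, and Col3a1 per Col1a1 read 0.314 and 0.320 against 0.293 and 0.311. Col6a1 to Col6a2 and Col8a1 to Col8a2 overlapped between groups. With 2 libraries against 2 the exact permutation p was 0.333 for each pair without overlap (0.429 after Benjamini-Hochberg adjustment over 9 pairs), the smallest the design allows, so no ratio could pass 0.05. The chains' reads differed between the inputs by 1.60 in chi-square per degree of freedom (p = 0.0366, 23 chains) and between the NONO IP libraries by 0.707 (p = 0.850, 25 chains). Intervals cover counting error only, since no molecular identifiers are named in the labels.

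**Figure D2:**
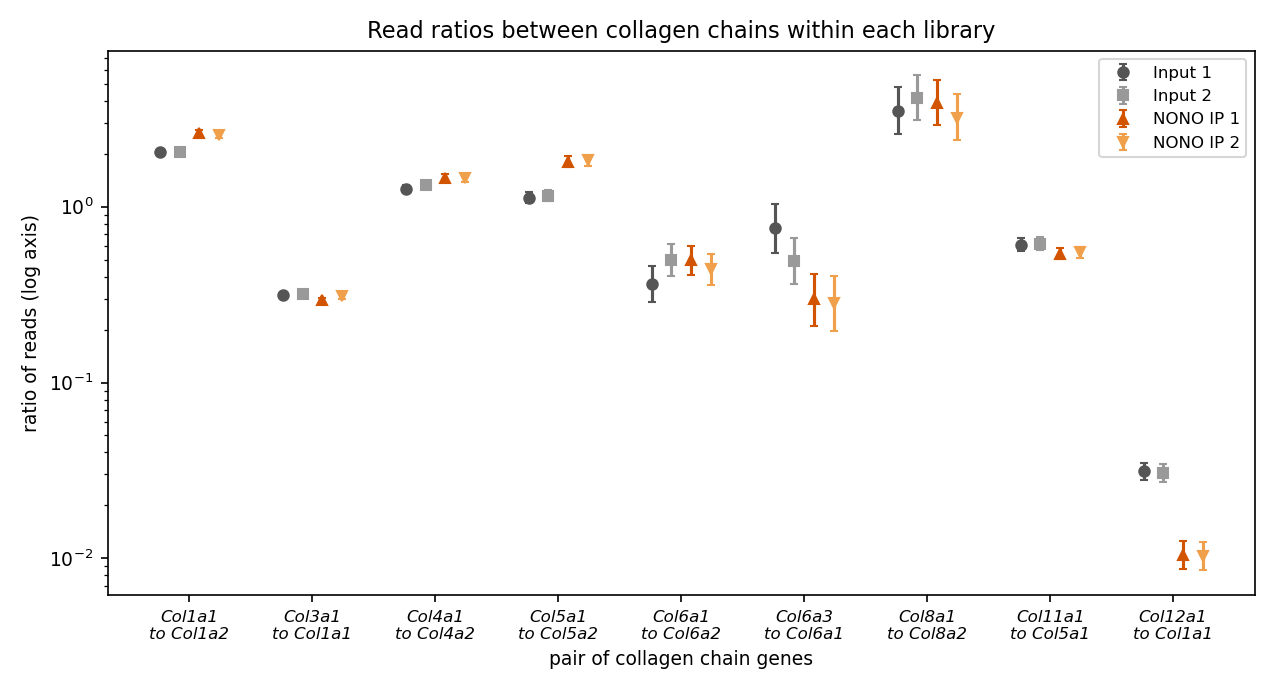
Reads of the first chain per read of the second (log axis) in each library, with 95% exact binomial intervals as bars; grey points are inputs and orange points NONO IP. The pairs Col1a1 to Col1a2, Col5a1 to Col5a2 and Col12a1 to Col1a1 are the 3 of 9 whose intervals stay apart, at 2.06 and 2.045 against 2.62 and 2.56 for the first.

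Per length, the order of levels within the inputs was Col1a1 (4721 ± 42.5 RPKM), Col1a2 (3002 ± 11.8), Col3a1 (1827 ± 8.19), Col4a1 (1419 ± 11.4), Col4a2 (1146 ± 45.5), Col5a2 (549 ± 0.544), Col5a1 (489 ± 8.98) and Col11a1 (311 ± 8.41), all SD with n = 2. Each of these lay apart from its neighbour by more than the spread of the libraries. Col8a1 (163.5 ± 30.6) and Col6a2 (138 ± 6.04) came next and overlapped. In the NONO IP the order of the first 5 was the same, at 2234 ± 42.4, 1125 ± 41.2, 824 ± 50.2, 694 ± 32.3 and 498 ± 25.6 RPKM. Values of the groups are not set against each other here, because the total behind the RPKM values differs between them.

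Log2 fold changes varied with abundance, so the chains were set beside other protein-coding genes of like input count. Among tested coding genes with at least 1000 input reads, 7 of 8 chains were called lower with a median log2 fold change of −0.45, and 13 of 15 other genes were called lower with a median of −1.33. Of those 15 genes, 10 lay below every one of the 8 chains, among them Fn1, fibronectin (−1.82), Flna, filamin A (−1.87), and Hspg2, the basement membrane proteoglycan perlecan (−1.48). Eln, elastin (−0.17), Sparc, a collagen-binding matrix protein (−0.40), Myh9 (−0.58) and Ccn2 (−0.61) lay among the chains. Only Tns1, tensin (0.65), lay above every chain. These genes, other than Fn1, were named after their values were seen.

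At lower counts, down to 50 input reads, the medians of the chains and of the other genes lay closer. From 200 to under 1000 input reads, 7 of 8 chains were lower at a median of −0.77, beside 76.7% of 120 other genes at −0.92. From 50 to under 200 input reads, 3 of 4 chains were lower at −0.71, beside 53.6% of 610 others at −0.66. Below 50 input reads, 1 of 4 chains was lower and 3 higher at a median of 0.90, beside 15.8% lower, 32.8% higher and a median of 0.29 among 2008 others. With few input reads a gene can pass the count filter through its NONO IP reads, as Col27a1 and Col20a1 did. This range is therefore given only as a description and supports no statement about the chains.

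**Figure D3:**
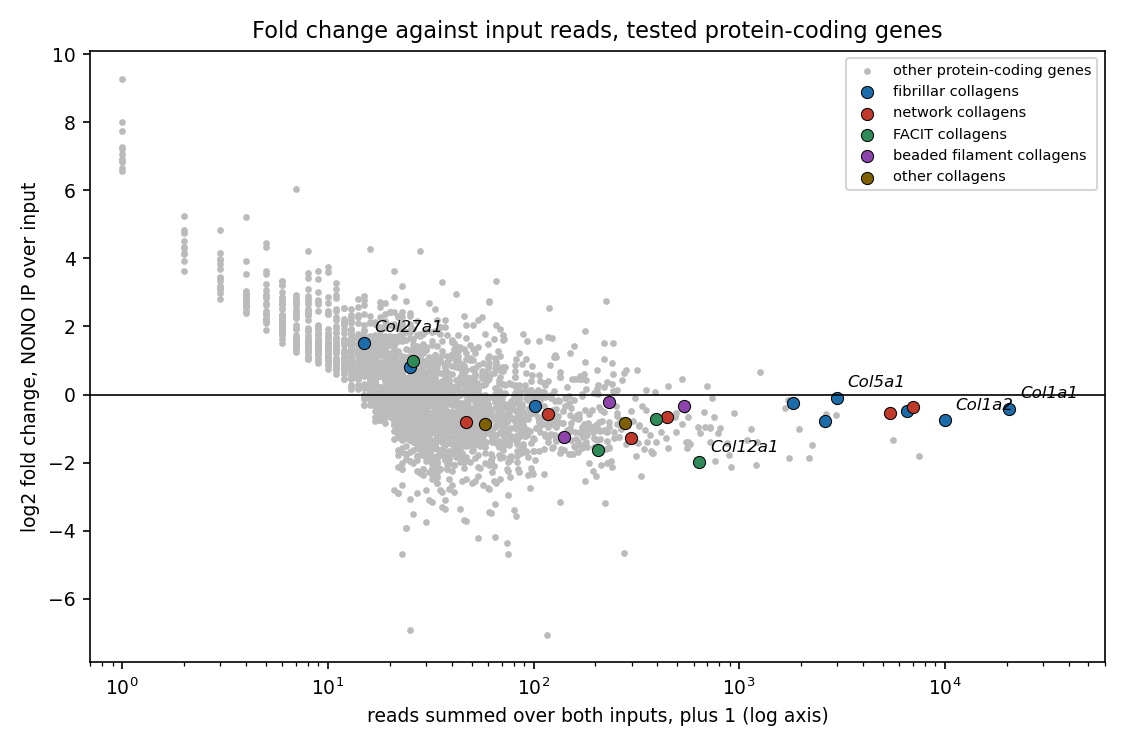
Log2 fold change, NONO IP over input, against reads summed over both inputs (log axis, plus 1) for tested protein-coding genes; grey points are other genes and coloured points the 24 collagen chains by class. The 8 chains with at least 1000 input reads lie between −0.77 and −0.10, and most grey points there lie lower.

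Beside genes within 2-fold of its own input reads, 17 of the 23 chains with such genes lay above the genes' median and 6 below; Col1a1 had none. Those below were Col12a1 (−1.99 against −1.005 over 57 genes), Col14a1 (−1.63 against −0.81 over 248), Col6a3 (−1.25 against −0.71 over 421), Col4a5 (−1.27 against −0.90 over 168), Col4a3 and Col15a1. Farthest above were Col4a1 (−0.37) and Col3a1 (−0.49), each beside a median of −1.58 over only 2 genes, and Col5a1 (−0.10 against −1.01 over 9 genes). Col27a1 and Col20a1 were 0.98 and 1.00 above their like-count medians after the filter and 1.91 and 1.35 above with no count filter, so their place in this order depends on the filter. The like-count median of Col27a1 itself was 0.54 with the filter and −0.17 without. With reads of all 4 libraries in place of input reads, 12 chains lay below and 11 above, and the median over chains of the like-count medians went from −0.90 to −0.32. The 6 chains named as below lay below by either count, and Col5a1, Col11a1, Col6a1, Col6a2 and Col11a2 lay above by either count. Col1a2, Col3a1, Col4a1 and Col4a2 also lay above, but beside only 2 or 3 genes of like input count. For Col3a1, Col4a1 and Col4a2 the difference was the same by either count, so the second count is no separate check. Col20a1 and Col27a1 lay above too, but reached the test through their NONO IP reads.

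**Figure D4:**
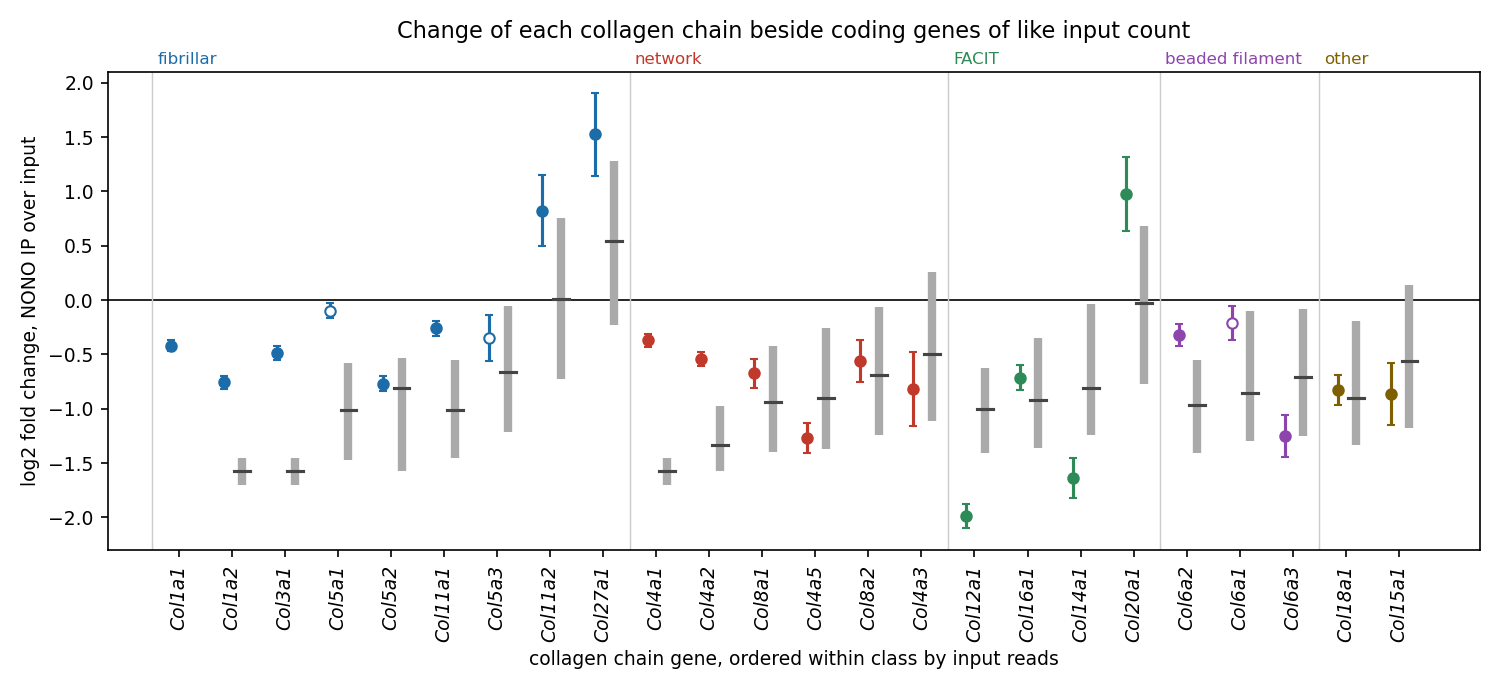
Log2 fold change, NONO IP over input, of each tested chain (points, bars ± 1 SE, open where the test was not passed) beside the median (dark line) and the quartiles (grey bar) of other coding genes with input reads within 2-fold. Col12a1 (−1.99) and Col14a1 (−1.63) lie clearly below their grey bars and Col6a3 (−1.25) just below. Col5a1, Col11a1, Col11a2, Col27a1, Col20a1 and Col6a2 lie above theirs. So do Col1a2, Col3a1, Col4a1 and Col4a2, whose bars rest on only 2 or 3 genes each. Col1a1 has no genes of like count.

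Chain length and gene position were set beside the change. Across the 24 tested chains, which share libraries, Pearson's r of the log2 fold change with log2 relative gene length was 0.0683 and Spearman's rho 0.0570. With log2 input reads, which also enter the fold change, r was −0.321 and rho −0.0983. Long chains stood at both ends, with Col12a1 and Col6a3 at 3.41 and 3.16 times the median length of the listed genes among the deepest falls and Col27a1 and Col11a2 at 2.67 and 2.64 times among those that rose. Of chains encoded side by side, Col3a1 and Col5a2, neighbours on chromosome 9 in the RefSeq gene order (GRCr8), had −0.49 and −0.77, Col4a1 and Col4a2 −0.37 and −0.54, and Col6a1 and Col6a2 −0.21 and −0.32, with SE from 0.06 to 0.16.

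The genes that modify, export, assemble and bind collagen were taken from textbook lists. Of 67 genes in 6 lists, 44 were tested, of which 36 fell, 2 rose and 6 did not pass, with a median of −1.06. Over all tested genes 26.9% were lower and 29.8% higher, and among coding genes within 2-fold of each gene's input reads the median share lower was 55.0% and the median log2 fold change −0.66. With library totals 24 were lower and 3 higher (Timp3 joined Ddr1 and Bgn) at a median of −0.60, beside 15.2% and 41.7% of all tested genes. By the DESeq2 Wald test 24 were lower and 0 higher, beside 14.5% and 15.5%. With an offset for gene length 26 were lower and 3 higher at a median of −0.77, beside 20.7% and 27.8%. With no count filter 26 were lower and 2 higher at a median of −0.84, beside 4.73% and 8.59%. Among the 44, a gene with few NONO IP reads could pass the count filter through its input reads, where it was higher. Falls of such genes are given only as a description. All 12 tested genes of hydroxylation and glycosylation fell, with a median of −1.29. Among them P4ha1, with 7 and 8 NONO IP reads, and P3h4, with 11 and 10, reached the test through their input reads, where they were higher. Coding genes of like input count had a median share lower of 48.3% and a median of −0.61. P4hb, the beta subunit of prolyl 4-hydroxylase and protein disulfide isomerase, had 144 and 161 input reads against 96 and 82 in the NONO IP libraries (−1.36, SE 0.14, adjusted p = 4.29e-07). Ppib, cyclophilin B (−1.98), and the prolyl 3-hydroxylase genes P3h3 (−1.04) and P3h1 (−1.65) followed.

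Of 8 folding and export genes, 7 fell, at a median of −1.44, beside 48.9% lower and −0.61 for genes of like input count. Serpinh1, the collagen chaperone HSP47, had 374 and 350 input reads against 243 and 307 in the NONO IP libraries (−0.98, SE 0.12, adjusted p = 2.11e-06). Mia3, which encodes TANGO1, the receptor that loads procollagen into transport carriers, had 30 and 43 against 9 and 15 reads (−2.18, SE 0.34, adjusted p = 4.02e-05). Mia3, and Sec24d with 14 and 10 NONO IP reads, reached the test through their input reads, where they were higher. Both falls are given only as a description. The chaperone gene Hspa5 was at −1.67 and the disulfide isomerase gene Pdia3 at −1.58.

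Of 8 genes of processing and cross-linking, 6 fell (median −0.70), including Adamts2, the procollagen N-propeptidase (−1.20, SE 0.13, adjusted p = 4.58e-07), Pcolce, an enhancer of C-propeptide removal (−1.08), and the cross-linking oxidases Lox (−0.79) and Loxl2 (−0.61). Genes of like input count were near this, with 65.4% lower and a median of −0.78. Among 6 receptor genes 5 fell (median −0.92, beside 61.0% lower and −0.71 for genes of like input count), with the collagen-binding integrin chains Itga1 (−1.44) and Itga11 (−1.11), Itgb1 (−0.45; 0.02 with library totals) and the collagen uptake receptor Mrc2 (−1.01). Ddr1, a receptor kinase activated by collagen, had 72 and 61 input reads and rose to 141 and 147 (0.53, SE 0.15, adjusted p = 0.00788), whereas on the RPKM scale with a pseudocount of 1 it was at −0.125, above the median gene there. Neither this rise nor that of Bgn passed without Input replicate 2.

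Of 5 degradation genes, 2 fell, the gelatinase gene Mmp2 (−0.90) and the inhibitor gene Timp1, with 11 and 10 input reads and 2 in each NONO IP library (−2.89, SE 0.55, adjusted p = 0.000254; −1.55 with an offset for gene length). The median of these 5 was −0.25, beside 59.3% lower and −0.70 for genes of like input count. Of 5 fibril partners, 4 fell, Fn1 (−1.82), Fbn1, fibrillin 1 (−1.38), Postn, periostin (−3.16), and Thbs2, thrombospondin 2 (−1.91). Bgn, the collagen-binding proteoglycan biglycan, rose (0.25, SE 0.09, adjusted p = 0.0213). On the same RPKM scale Bgn was at −0.41, above the median gene there, and with the offset for gene length at 0.84. The median of the 5 partners was −1.82, beside 85.2% lower and −1.005 for genes of like input count. Thbs2 had 11 and 12 input reads against 4 and 5 in the NONO IP libraries. Like Timp1, it reached the test through its input reads, where it was higher. Both falls are given only as a description.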

How the data were processed

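Whole reads per gene and RPKM values were deposited for 4 libraries, 2 inputs and 2 NONO IP, grouped by sample title. The deposited counts are not normalised, from the values; the RPKM values, also as deposited, were divided into the counts to recover relative gene lengths. The aligner HISAT2, HOMER and the build mRatBN7.2 are named in the submitters' processing notes without roles. No source used here states the counting program or strand setting, so overlapping, antisense or near-identical genes are uncertain.

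Groups were tested in R 4.3.3 with the quasi-likelihood F-test of edgeR 4.0.16, with TMM scaling, on the 2920 genes that filterByExpr kept. It was checked on simulated data. Adjusted p are Benjamini-Hochberg values over these genes, called under 0.05. Each SE was derived as |log2 fold change| over √F. Alternatives used DESeq2 (1.42.0), limma (3.58.1), other scalings, filters, offsets and left-out libraries.

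Every chain is accounted for. From each handling list up to 4 genes with the smallest adjusted p on the larger side, and all called genes on the other side, are named. P4ha1, P3h4 and Sec24d are named besides, for reaching the test through their input reads. Members and lists were chosen with earlier results of these data known. All 35 symbols matched RefSeq (GRCr8), used only for gene order.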

Additional observations from a re-analysis of the deposited data

Results flagged for a closer look

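A row described in the table as collagen alpha-2(I) chain-like, LOC120098939 on chromosome 20, is not a chain gene by the rule and entered no count or median of the chains above. It had 0 reads in each input, while the NONO IP libraries held 13 and 15, or 28 in all. The row was among the tested genes, but reached the test through its NONO IP reads, where it was higher. Against a floor of 3 counts over the group it was at least 6.22-fold higher per scaled library, which is given only as a description. Other genes shared the pattern, such as Bach2, with 0 reads in each input and 18 and 12 in the NONO IP libraries. How many did was not counted. Only LOC120098939 is followed here. Whether its reads come from sequence shared with other genes was not tested.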

How the results depend on the processing

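Of the 24 tested chains, 18 were lower and 3 higher, at a median of −0.55. Library totals gave 7 lower and 5 higher at a median of −0.089, with Col11a1 (0.20), Col5a3 (0.11), Col4a1 (0.09), Col1a1 (0.043), Col6a2 (0.14), Col5a1 (0.37) and Col6a1 (0.25) turning positive. By the DESeq2 Wald test 13 were lower and 0 higher, and on both RPKM scales 0 were higher. With at least 50 counts in 2 libraries 0 were higher among 19 chains, because that filter removed the 3 that rose. With no count filter (35 chains) 12 were lower, Col4a1, Col11a1, Col6a2, Col8a2, Col15a1 and Col4a3 losing their calls, and the median was −0.27, where Col5a1 (0.12) and Col6a1 (0.006) turned positive. The median was −1.16 on log2(RPKM + 1) and −1.18 on log2(RPKM + 0.1). Leaving out 1 library gave 13 to 18 lower (13 without Input replicate 2) and 1 to 2 higher chains, medians from −0.57 to −0.49 and Col6a1 from −0.467 to 0.054. The median gene sat at 0.48 with library totals, 0.30 with no filter, −0.61 and −0.82 on the RPKM scales. The TMM factors left out with library totals were 0.844 and 0.861 for the inputs, against 1.171 and 1.176 for the NONO IP libraries. Relative to Input replicate 1, the total behind the RPKM values was 2.45 and 2.22 in the NONO IP libraries and 0.965 in Input 2. Why these factors and totals differed was not tested.

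The median of like-count genes was −0.90. It was −0.32 by reads of all 4 libraries, from −0.92 to −0.83 without 1 library and, in alternatives chosen after seeing the data, −0.68 with no count filter, −0.73 with the length offset and −0.44 with library totals. The collagen share of reads changed by −0.507 percentage points, by −3.15 of protein-coding reads and by −0.113 without Col1a1, Col1a2 and Col3a1. The replicate block gave 18 lower and 3 higher at a median of −0.55 and changed no call; the numbers are not known to pair libraries (correlation of their deviations 0.0508). Replicates differed beyond sampling noise over all genes, by 1.12 and 1.42 in chi-square per degree of freedom.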
